A study of Mus musculus with 28 samples.

Results

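Runx1, Runx2, Runx3, their shared binding partner Cbfb and the osteoblast factor Sp7 (Osterix) were followed across every condition of a differentiation experiment in O9-1 cells, an established line of mouse cranial neural crest cells. The 5 genes were chosen by symbol and each was found once among the 54429 genes of the raw count table. The study asked how 21% or 0.5% oxygen bears on the differentiation of these cells, and RNA was sequenced from 28 libraries in 8 groups, with 4 libraries in each group at 21% oxygen (normoxic) and 3 in each at 0.5% (hypoxic). Proliferating cells were kept in medium conditioned by STO feeder cells, with 15% serum, 25 ng/ml bFGF and 5 ng/ml LIF. Osteoblast cultures had 10 days in osteogenic medium holding 100 ng/ml BMP-2, 0.1 µM dexamethasone, 10 mM beta-glycerophosphate and 10% serum. Chondrocyte cultures began with 3 days in that osteogenic medium and went on as micromass cultures for 7 days with 50 ng/ml BMP-2, 10 ng/ml TGF-beta3, 0.1 µM dexamethasone and 5% serum. Smooth muscle cultures had 3 days in medium with 10% serum. All groups come from 1 cell line, no gene was edited, and group names below are those of the culture labels. The labels number the replicates without saying that they were separate cultures, so p-values measure the spread between these libraries, which may be technical.

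Runx proteins bind DNA through the Runt domain and act as heterodimers with Cbfb, which does not touch DNA itself but strengthens binding and protects Runx proteins from degradation. Runx2 is required for osteoblast formation and for chondrocyte hypertrophy, and Sp7 acts after Runx2 in the osteoblast lineage. Runx1 is best known from blood formation and is also expressed in cartilage and in early skeletal progenitors, while Runx3 is known from neurons and T cells and acts beside Runx2 in maturing cartilage. Cranial neural crest cells give rise to most bone and cartilage of the face. Sequences that each Runx protein can bind, with the core TGTGGT, lie in the distal promoters of the Runx genes themselves.

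The distal promoters of the 3 Runx genes are printed here because their windows share an 18-base stretch that holds a pair of Runx motifs. RefSeq windows of 300 bases (250 before and 50 after the annotated start, build GRCm38.p6) matched 4 of the 5 members by symbol, with 6 windows in all. The stretch, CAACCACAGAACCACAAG, stood in the distal window of Runx1, Runx2 and Runx3. It holds 2 copies of ACCACA, the reverse complement of TGTGGT, in tandem. Capitals below mark the matches to TGTGGT or ACCACA on either strand, in 30 bases at chr16:92826025-92826054 (minus strand), chr17:44814583-44814612 (minus strand) and chr4:135120503-135120532 (plus strand).
Runx1: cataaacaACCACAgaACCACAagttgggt
Runx2: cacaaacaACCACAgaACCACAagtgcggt
Runx3: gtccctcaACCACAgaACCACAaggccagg
The tandem ACCACAGAACCACA was present in 4 of 32841 RefSeq windows (0.0122%), counting both strands. The fourth window belongs to Gm16225, on the opposite strand at chr4:135120327-135120626, which overlaps the Runx3 window, and that gene had 9 counts over all libraries. Since the tandem was taken from the 3 Runx windows, those matches were fixed in advance and the count does not test its rarity. A single TGTGGT, a shorter sequence, was in 16.8% of the windows. In Runx1 the 2 matches began 28 and 36 bases after the start, in Runx2 23 and 31 bases after it, and in Runx3 at -134 and -126 bases. The 250 bases before the Runx3 start, chr4:135120395-135120644 on the plus strand, show the tandem in its surroundings.
Runx3 upstream: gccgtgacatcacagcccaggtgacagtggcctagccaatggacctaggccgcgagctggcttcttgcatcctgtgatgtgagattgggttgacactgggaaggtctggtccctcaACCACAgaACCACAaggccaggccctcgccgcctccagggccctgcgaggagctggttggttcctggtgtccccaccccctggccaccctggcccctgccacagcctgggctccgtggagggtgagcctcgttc
The cores ACGTG and GCGTG, known from elements bound by hypoxia-inducible factors, were searched on both strands too. ACGTG was in both Runx1 windows and GCGTG in the proximal one, and neither was in the windows of Runx2, Runx3 or Cbfb, against 19.6% and 32.4% of all windows. Matches describe letters in a window and say nothing of binding in these cells.

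In the GENCODE M21 annotation of GRCm38, Runx1 (ENSMUSG00000022952) lies on chromosome 16 from 92601466 to 92826149 on the minus strand, Runx2 (ENSMUSG00000039153) on chromosome 17 from 44495987 to 44814797 on the minus strand, and Runx3 (ENSMUSG00000070691) on chromosome 4 from 135120652 to 135177990 on the plus strand. Cbfb (ENSMUSG00000031885) lies on chromosome 8 from 105170674 to 105217989 on the plus strand and Sp7 (ENSMUSG00000060284) on chromosome 15 from 102356606 to 102367182 on the minus strand. Gene counts sum all transcripts, so the distal and proximal isoforms of the Runx genes were not separated. The antisense gene Runx2os1 overlaps 519 exonic bases of Runx2, and whether the counting used strand is not given in the sources used here. Runx2os1 had 3.24% as many counts as Runx2 over the 28 libraries, and a larger share in hypoxic smooth muscle cultures, as given below. The only other exonic overlap was 106 bases between Runx1 and the antisense gene Gm26626.

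Library totals ran from 19869271 to 64693346 counts. The 3 hypoxic smooth muscle libraries stood apart from the other 25: mitochondrial rRNA took 11.6% to 13.3% of their counts, against at most 0.0889% elsewhere, and their TMM scaling factors were 0.505 to 0.533. Smooth muscle markers also went against that group's label. Over 7 markers the sum was 95.03 to 119 CPM there (counts per 1000000, scaled by TMM). It was 94.3 to 102.9 CPM in normoxic proliferating cells and 3579 to 4042 CPM in normoxic smooth muscle cultures. The same markers summed to 3647 to 5175 CPM in normoxic osteoblast cultures, with replicate 4 the highest, and to 2213 to 2493 CPM in hypoxic ones. Over 8 chondrocyte markers the normoxic chondrocyte libraries summed to 3186 to 9647 CPM and the hypoxic ones to 906 to 1383 CPM, above all other groups except that normoxic osteoblast replicate 4 had 1543 CPM. The 8 osteoblast markers, by contrast, summed higher in chondrocyte cultures (38411 to 51369 CPM) than in normoxic (6642 to 10409 CPM) or hypoxic (13459 to 15366 CPM) osteoblast cultures, mostly through Col1a1. Over 8 genes of the response to low oxygen, each rose in all 4 oxygen comparisons, with sums of 3919 to 5645 CPM in hypoxic and 365 to 2045 CPM in normoxic libraries. Among the normoxic osteoblast libraries, replicate 4 differed from the other 3 in several genes given below. Markers of blood cells, in which Runx1 and Runx3 are abundant, summed to at most 3.81 CPM in any library over 10 genes, with Cd3e and Tyrobp at 0 in every group. The 8 neural crest markers summed to 2372 to 2625 CPM in normoxic and 2828 to 3053 CPM in hypoxic proliferating cells, 789 to 969 CPM in normoxic and 2920 to 3657 CPM in hypoxic smooth muscle cultures, and 120.0 to 272 CPM in chondrocyte and osteoblast libraries. Of these markers, Sox10 and Foxd3 were at or near 0 in all groups, proliferating cells included. All marker sums here use TMM scaling, whose low factors raise those of hypoxic smooth muscle cultures relative to library size alone. In these bulk libraries, fewer cells expressing a gene and less RNA per cell cannot be told apart.

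Levels are given in CPM scaled by TMM over all 28 libraries, listed from replicate 1 upward. Differences are log2 fold changes from edgeR's quasi-likelihood test, fitted to each pair of groups over all genes kept by its filter, and a gene is called where the Benjamini-Hochberg adjusted p is under 0.05.

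**Figure D1:**
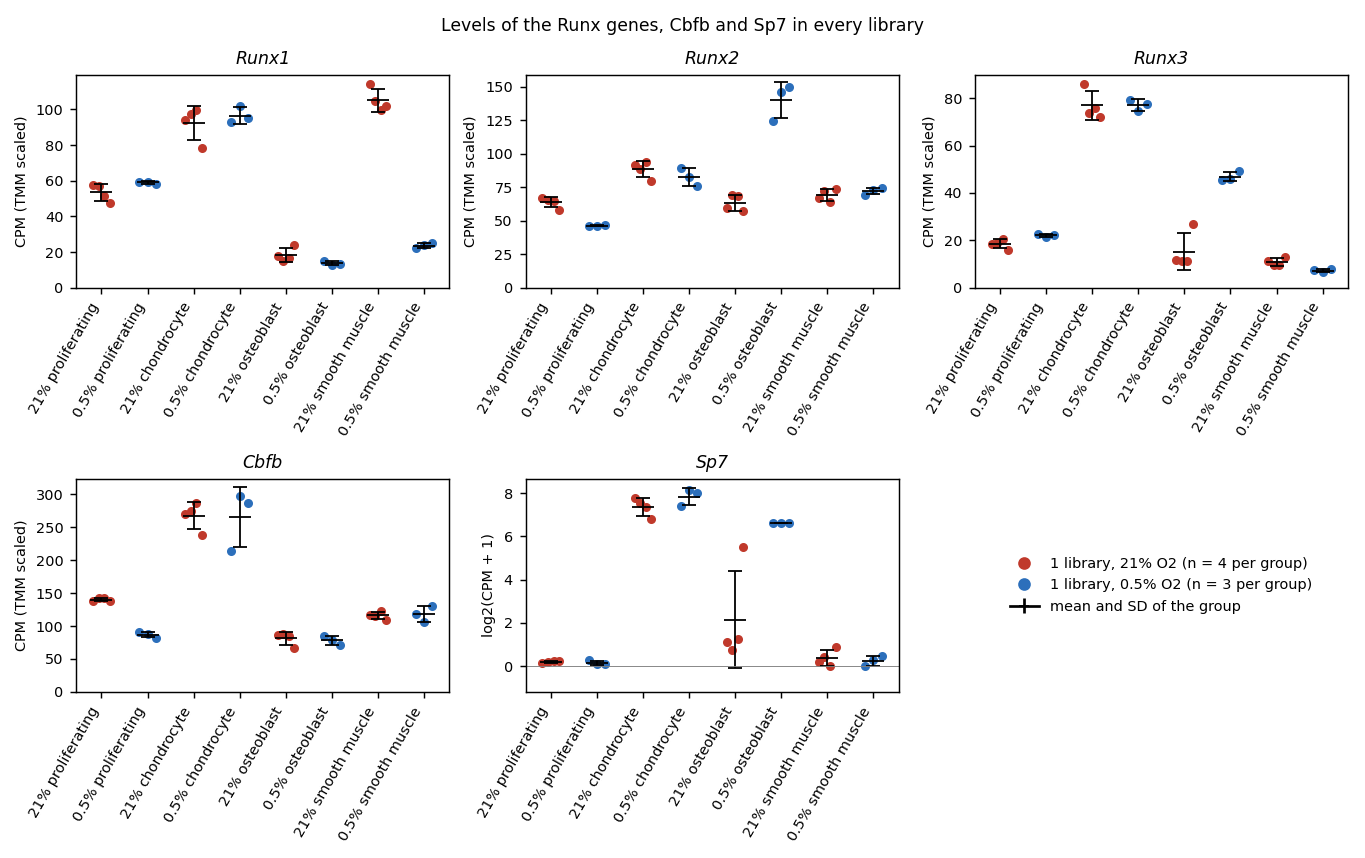
Level of each gene in every library. The vertical axes give CPM, or log2(CPM + 1) for Sp7, points are libraries (red 21% oxygen, blue 0.5%) and black marks the mean and SD of each group. Runx2 is highest in hypoxic osteoblast cultures, Runx3 and Cbfb in both chondrocyte groups, and Sp7 has 1 normoxic osteoblast library at 45.4 CPM among 4.

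Runx2, the factor that commits cells to the osteoblast lineage, was present in every library, and it was highest in osteoblast cultures under low oxygen. Normoxic proliferating cells had 67.3, 65.5, 64.6 and 58.2 CPM. Normoxic osteoblast cultures had 59.6, 69.1, 68.2 and 57.1 CPM. These ranges overlapped, and the difference was 0.05 (SE 0.08, 95% interval -0.13 to 0.22, adjusted p = 0.605). Runx2 mRNA therefore did not pass the test in the comparison of normoxic osteoblast with normoxic proliferating cells. Under 0.5% oxygen the proliferating cells had 45.7, 46.2 and 46.7 CPM. The hypoxic osteoblast cultures had 125, 146 and 149.8 CPM, all above every other library of the series. Runx2 rose there by 1.60 (SE 0.08, adjusted p = 8.13e-11), a 3.03-fold difference. Against normoxic osteoblast cultures the hypoxic ones were 1.14 higher (SE 0.10, adjusted p = 2.09e-05), while hypoxic proliferating cells were 0.41 lower than normoxic ones (SE 0.06, adjusted p = 2.68e-05). The interaction, which is the oxygen difference in osteoblast cultures minus that in proliferating cells, was 1.60 (SE 0.12, adjusted p = 2.91e-08).

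Chondrocyte cultures had more Runx2 than proliferating cells at both oxygen levels. The normoxic libraries had 91.8, 88.8, 93.9 and 80.0 CPM, a rise of 0.55 (SE 0.06, adjusted p = 7.81e-06) over proliferating cells. The hypoxic libraries had 89.7, 82.6 and 76.1 CPM, 0.83 higher than hypoxic proliferating cells (SE 0.07, adjusted p = 2.03e-07). Both sets of chondrocyte libraries overlapped each other, at a difference of -0.11 (95% interval -0.27 to 0.06, adjusted p = 0.371). Relative to chondrocyte cultures, Runx2 in osteoblast cultures was 0.46 lower at 21% oxygen (adjusted p = 0.00107) and 0.75 higher at 0.5% (adjusted p = 2.13e-05). The interaction of oxygen with these 2 lineages was 1.24 (SE 0.13, adjusted p = 4.99e-06). Smooth muscle cultures had 67.2, 72.5, 64.0 and 73.9 CPM at 21% oxygen and 69.4, 72.8 and 74.2 CPM at 0.5%. The normoxic difference from proliferating cells was small, 0.17 (SE 0.06, adjusted p = 0.0194), with overlapping libraries. Leaving out normoxic proliferating replicate 2, 3 or 4 or normoxic smooth muscle replicate 2 ended that call, and adjusted p lay between 0.00871 and 0.0723 over the 8 fits with 1 library left out. It also ended in a single fit over all 28 libraries (0.12, adjusted p = 0.164). In hypoxic smooth muscle cultures Runx2 was 0.76 above hypoxic proliferating cells (SE 0.08, adjusted p = 6.84e-06) with TMM scaling and -0.52 with library size alone, so its direction there rests on the scaling of the libraries rich in mitochondrial rRNA.

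Sp7, the zinc finger factor that acts with and after Runx2, ran from 0 to 281 CPM. In proliferating cells it was close to absent, with 0.108, 0.149, 0.166 and 0.175 CPM at 21% oxygen and 0.195, 0.0718 and 0.0685 CPM at 0.5%, or 25 and 10 counts in all. Smooth muscle cultures had 0.122, 0.322, 0 and 0.816 CPM (normoxic) and 0, 0.199 and 0.370 CPM (hypoxic). None of the 4 groups reached 1 CPM, and the gene was not tested where both groups were so low. Chondrocyte cultures had the most Sp7, at 219, 185, 163 and 112 CPM under 21% oxygen and 167, 281 and 258 CPM under 0.5%. Both rises over proliferating cells were called, by 10.22 (SE 0.57, adjusted p = 1.57e-09) and 10.95 (SE 1.11, adjusted p = 2.91e-06). The 2 chondrocyte groups overlapped, and the oxygen difference of 0.46 had a 95% interval of -0.20 to 1.13 (adjusted p = 0.292).

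In the osteoblast cultures Sp7 differed by library at 21% oxygen and was nearly constant at 0.5%. The normoxic libraries had 1.15, 0.670, 1.36 and 45.4 CPM, so replicate 4 was far above the other 3. Hypoxic osteoblast cultures had 96.8, 96.9 and 96.2 CPM, above all 4 normoxic ones, and were 9.67 above hypoxic proliferating cells (SE 0.40, adjusted p = 6.82e-16). The normoxic osteoblast rise over proliferating cells was 6.41 (SE 1.87, adjusted p = 0.00559), and without replicate 4 it was 2.84 and still called, whereas limma-voom gave 4.23 with adjusted p = 0.0824. Between the oxygen levels the osteoblast difference was 2.97 (95% interval -0.48 to 6.42, adjusted p = 0.131) although no library overlapped. Without normoxic replicate 4 that difference became 6.48 and was called (adjusted p = 1.41e-12). That was the only 1 of 7 fits leaving out 1 library that called it, with adjusted p up to 0.2055. On all libraries limma-voom called it at 5.08 (adjusted p = 0.00292). A single fit over all 28 libraries called it at 2.97 (adjusted p = 0.003015). Osteoblast cultures had less Sp7 than chondrocyte cultures, with a log2 difference of -3.77 at 21% oxygen (adjusted p = 0.0319, from 3.33e-06 to 0.0610 over the fits that left out 1 library, where 6 of 8 missed the threshold). Those 6 left out normoxic chondrocyte replicate 1, 2 or 3 or normoxic osteoblast replicate 1, 2 or 3, and without normoxic osteoblast replicate 4 the difference was -7.28. Without the filter on low counts the call ended too (adjusted p = 0.0899). At 0.5% oxygen Sp7 fell by 1.29 relative to chondrocyte cultures (SE 0.17, adjusted p = 0.000117), a call lost in the single fit over all libraries (-1.28, adjusted p = 0.194).

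In the authors' deposited table, Sp7 in hypoxic over normoxic osteoblast cultures has a log2 fold change of 0.846 and a p-value of 0.0807. The authors' deposited table for normoxic osteoblast over proliferating cells lists 5.81 and gives no p-value.

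**Figure D2:**
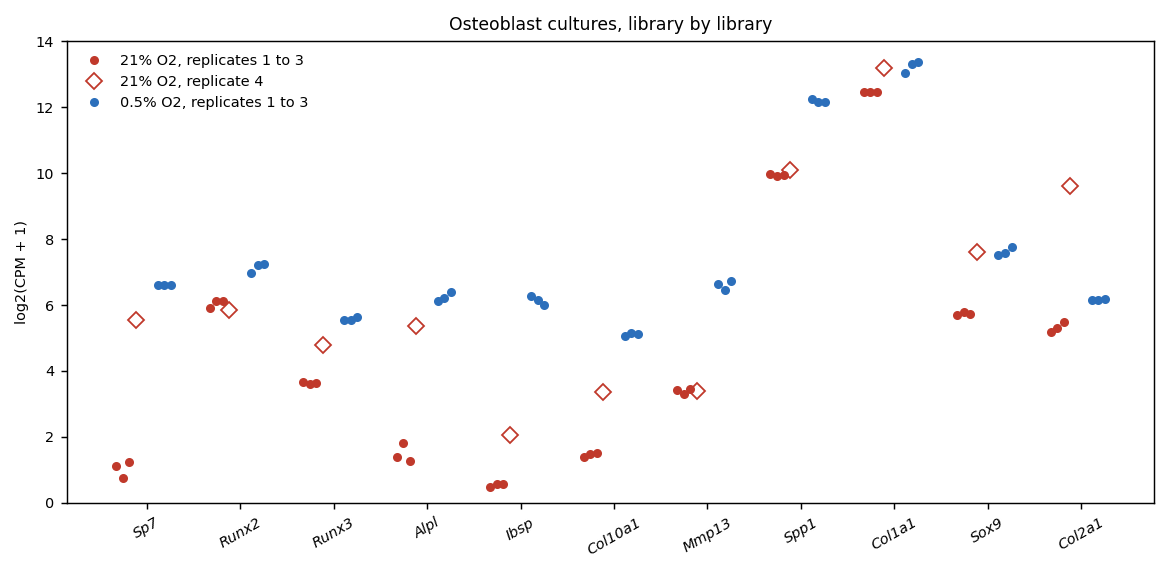
Osteoblast cultures library by library, for Sp7, Runx2, Runx3, bone genes and cartilage genes. The vertical axis is log2(CPM + 1), filled points are replicates 1 to 3 (red 21% oxygen, blue 0.5%) and the open diamond is normoxic replicate 4, which sits above its group for Sp7, Runx3, Alpl, Sox9 and Col2a1 within its group for Mmp13, and lowest of its group for Runx2.

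Normoxic osteoblast replicate 4 was also set apart by other genes of the skeletal lineages. Alpl, the alkaline phosphatase of mineralising cells, had 40.0 CPM there against 1.39 to 2.52 in the other 3 libraries. Ibsp, the bone sialoprotein gene, had 3.20 CPM against 0.384 to 0.475. The cartilage genes moved the same way in that library: Sox9 stood at 194 CPM against 51.1 to 54.7, and Col2a1 at 775 CPM against 35.6 to 43.6. The 8 chondrocyte markers summed to 1543 CPM in replicate 4, beyond a group median of 205, and to 607 to 644 CPM in hypoxic osteoblast cultures. Mmp13, a collagenase that Runx2 activates, was 9.45 CPM in that library and within the range of its group. Smooth muscle markers also differed between the osteoblast groups, as given above. The part of these markers in the Sp7 values and in the other oxygen differences of osteoblast cultures was not tested.

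Runx3 marked the chondrocyte cultures most clearly among the Runx genes. Normoxic proliferating cells had 18.6, 19.0, 20.7 and 15.96 CPM and hypoxic ones 22.7, 21.5 and 22.4 CPM, all above the normoxic range (difference 0.31, SE 0.09, adjusted p = 0.00570). A single fit over all 28 libraries gave 0.26 without a call (adjusted p = 0.297). Chondrocyte cultures had 86.1, 73.8, 75.9 and 72.1 CPM at 21% oxygen and 79.5, 74.7 and 77.5 CPM at 0.5%. No library of any other group reached those values. The rises were 2.13 (SE 0.09, adjusted p = 7.499e-10) and 1.79 (SE 0.07, adjusted p = 7.16e-11), or 4.37-fold and 3.46-fold. Oxygen made a difference of -0.003 in chondrocyte cultures (95% interval -0.17 to 0.16, adjusted p = 0.983).

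In osteoblast cultures Runx3 followed oxygen. The normoxic libraries had 11.6, 11.2, 11.4 and 26.8 CPM, with replicate 4 again the highest. All 3 hypoxic libraries were higher still, at 45.7, 45.8 and 49.1 CPM. The rise from normoxic to hypoxic osteoblast cultures was 1.61 (SE 0.32, adjusted p = 0.00360), and hypoxic osteoblast cultures were 1.08 above hypoxic proliferating cells (SE 0.09, adjusted p = 2.13e-08). The oxygen effect in osteoblast cultures exceeded that in chondrocyte cultures by 1.61 (SE 0.35, adjusted p = 0.00302) and that in proliferating cells by 1.34 (SE 0.36, adjusted p = 0.00635). Against normoxic proliferating cells, normoxic osteoblast cultures differed by -0.22 (adjusted p = 0.482), and without replicate 4 this became -0.69 and was called. Smooth muscle cultures had the lowest group means of Runx3, with 11.4, 9.64, 9.40 and 13.1 CPM at 21% oxygen and 7.499, 6.48 and 7.69 CPM at 0.5%. Runx3 fell by 0.72 (adjusted p = 3.23e-05) and 1.49 (adjusted p = 2.84e-06) against proliferating cells at the same oxygen. Between the smooth muscle groups it fell by 0.53 at low oxygen (SE 0.18, adjusted p = 0.0170), a call that was lost without normoxic smooth muscle replicate 4 (adjusted p = 0.0504). With library size alone that difference was -1.89.

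Runx1, expressed in early skeletal progenitors as well as blood, was low in osteoblast cultures and split by oxygen in smooth muscle cultures. Proliferating cells had 57.5, 56.9, 51.6 and 47.7 CPM at 21% oxygen and 59.5, 59.4 and 58.2 CPM at 0.5%. The small rise with low oxygen was 0.20 (SE 0.07, adjusted p = 0.0148), and it was lost without hypoxic proliferating replicate 1 or 2 (adjusted p = 0.0518 and 0.0513). Library size alone (0.125, adjusted p = 0.105) and a single fit over all libraries (0.143, adjusted p = 0.281) ended the call as well. Normoxic osteoblast cultures had 17.7, 15.2, 16.5 and 24.0 CPM. Hypoxic osteoblast cultures had 14.9, 13.0 and 13.1 CPM, just below every normoxic one. Runx1 fell by 1.49 (SE 0.14, adjusted p = 5.53e-06) and fell by 2.12 (SE 0.09, adjusted p = 1.43e-11) relative to proliferating cells. Between the oxygen levels in osteoblast cultures it fell by 0.43 (SE 0.16, adjusted p = 0.0493), with adjusted p from 0.0316 to 0.147 over fits leaving out 1 library, of which 2 of 7 kept the call. The calls were lost without normoxic osteoblast replicate 1 or 3 or without any 1 of the hypoxic osteoblast libraries, and limma-voom did not call it (adjusted p = 0.0554).

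Chondrocyte cultures had 94.3, 97.4, 99.4 and 78.3 CPM of Runx1 at 21% oxygen and 92.7, 102 and 95.3 CPM at 0.5%. Runx1 rose there by 0.86 (SE 0.08, adjusted p = 1.09e-06) and 0.70 (SE 0.06, adjusted p = 3.09e-07) over proliferating cells, and the oxygen groups overlapped. Its difference from chondrocyte to osteoblast cultures was -2.31 at 21% oxygen and -2.83 at 0.5%, both called. Normoxic smooth muscle cultures had 114, 104.7, 99.9 and 102 CPM, about the level of the chondrocyte cultures. Hypoxic smooth muscle cultures had 22.2, 23.7 and 24.9 CPM. Runx1 therefore rose by 1.03 (SE 0.07, adjusted p = 6.51e-10) in smooth muscle medium at 21% oxygen and fell by 1.20 (SE 0.10, adjusted p = 5.04e-07) at 0.5%, each against proliferating cells. From normoxic to hypoxic smooth muscle cultures it fell by 2.09 (SE 0.09, adjusted p = 3.15e-11), and the interaction with proliferating cells was -2.25 (SE 0.11, adjusted p = 9.26e-14). With library size alone hypoxic smooth muscle cultures had the lowest mean of all groups (12.2 CPM, against 13.4 in hypoxic osteoblast cultures), and the same 3 differences were -2.48 against hypoxic proliferating cells, -3.46 against normoxic smooth muscle and -3.59 in the interaction. Mitochondrial rRNA and the smooth muscle markers differed between these same groups, as given above, and their part in the Runx1 values was not tested.

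Cbfb, the common partner, rose in chondrocyte cultures together with the 3 Runx genes. Proliferating cells had 138, 142, 142 and 138 CPM at 21% oxygen and 90.6, 88.5 and 82.3 CPM at 0.5%, a fall of 0.63 (SE 0.05, adjusted p = 7.99e-08). Chondrocyte cultures had 269.6, 274, 286 and 238 CPM (normoxic) and 213, 297 and 286 CPM (hypoxic). The rises over proliferating cells were 1.00 (SE 0.06, adjusted p = 1.52e-08) and 1.60 (SE 0.12, adjusted p = 2.58e-06). Low oxygen had lowered Cbfb in proliferating cells, while chondrocyte cultures differed by -0.02 between oxygen levels (95% interval -0.26 to 0.23), and the interaction was 0.63 (SE 0.13, adjusted p = 0.000718). Osteoblast cultures had 86.8, 87.4, 85.5 and 66.7 CPM at 21% oxygen and 84.8, 79.5 and 71.2 CPM at 0.5%. Cbfb fell by 0.73 in normoxic osteoblast cultures (SE 0.08, adjusted p = 2.58e-05), and the hypoxic difference from proliferating cells was -0.15 (95% interval -0.32 to 0.02, adjusted p = 0.0989). That hypoxic difference passed the test without hypoxic osteoblast replicate 1, at -0.21, and with library size alone, at -0.38 (adjusted p = 0.000725). From chondrocyte to osteoblast cultures Cbfb fell by 1.69 and 1.76. Smooth muscle cultures had 117, 115, 123 and 109.7 CPM at 21% oxygen and 118, 107 and 129.8 CPM at 0.5%. The normoxic difference from proliferating cells was -0.22 (SE 0.05, adjusted p = 0.000875), and the hypoxic difference was 0.56 (SE 0.09, adjusted p = 0.000131) with TMM scaling but -0.71 with library size alone.

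**Figure D3:**
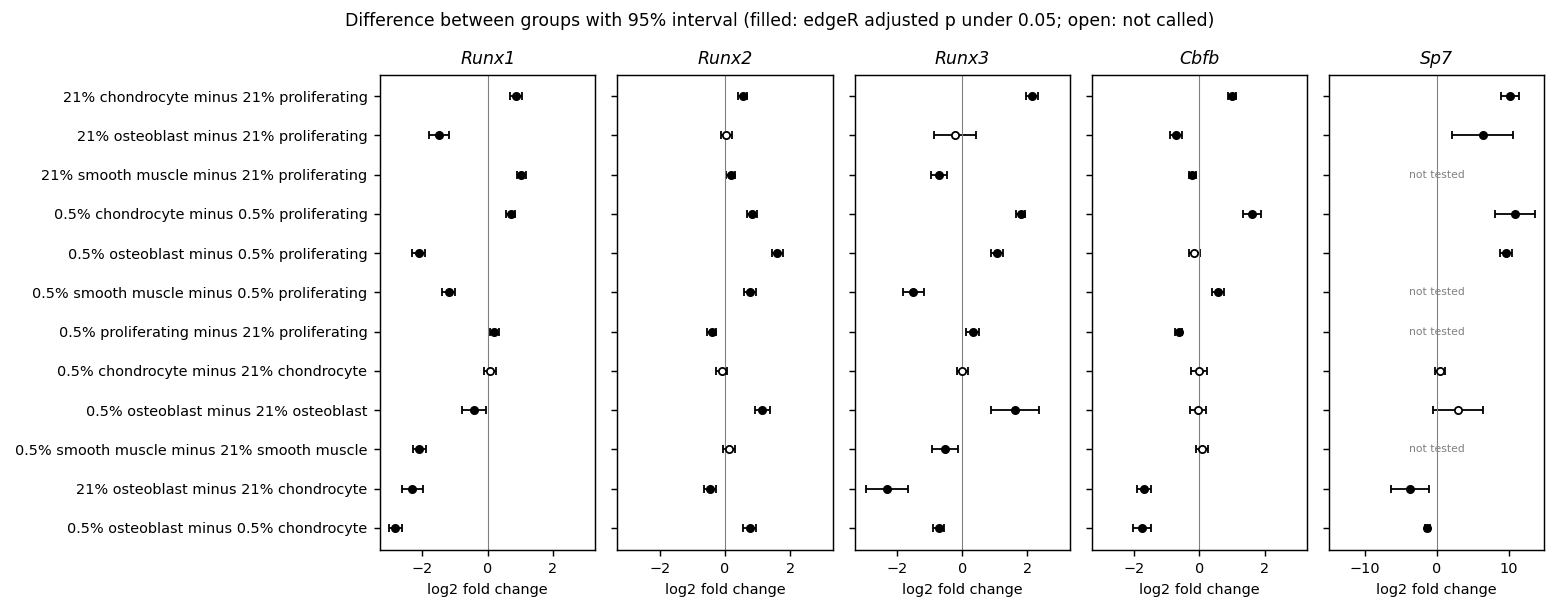
Log2 fold change of each gene in the 12 pairs of groups, first group minus second, with 95% intervals. Filled points passed the test and open points did not. The points of all 5 genes lie right of 0 in both chondrocyte rows against proliferating cells, and the horizontal scale of Sp7 is wider than that of the other genes.

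Counted over the 5 genes, calls were set beside the share of all genes called in the same fit. All 5 were called higher in normoxic chondrocyte against proliferating cells, where 74.9% of the 14360 genes tested were called, 37.7% higher and 37.2% lower. All 5 were called higher in the hypoxic chondrocyte comparison too (69.5% called, 34.9% higher and 34.6% lower). In normoxic osteoblast against proliferating cells 3 of 5 were called, Sp7 higher and Runx1 and Cbfb lower, against 78.7% of all genes (40.9% higher, 37.8% lower). The hypoxic osteoblast comparison called 4 of 5, with Runx2, Runx3 and Sp7 higher and Runx1 lower (71.3% of all genes, 36.2% higher and 35.1% lower). Both smooth muscle comparisons called 4 of the 4 tested, 2 higher and 2 lower. The background there was 79.7% (40.8% higher, 38.9% lower) at 21% oxygen and 70.0% (33.8% higher, 36.2% lower) at 0.5%. With library size alone the 2 higher calls at 0.5% oxygen, Runx2 and Cbfb, turned and all 4 were called lower.

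Low against normal oxygen called 4 of 4 in proliferating cells, 2 in each direction (65.4% of all genes, 33.1% higher and 32.3% lower). It called 0 of 5 in chondrocyte cultures (22.2%, 10.4% higher and 11.8% lower). For that 0, edgeR also gave 0 at an unadjusted p under 0.05, and DESeq2 and limma-voom gave 0 at the adjusted threshold. In osteoblast cultures 3 of 5 were called, Runx2 and Runx3 higher and Runx1 lower (54.3%, 27.0% higher and 27.3% lower), and in smooth muscle cultures 2 of 4, both lower (75.6%, 35.4% higher and 40.2% lower). In osteoblast against chondrocyte cultures 5 of 5 were called lower at 21% oxygen (59.7%, 31.1% higher and 28.6% lower), and 4 of 5 lower with Runx2 higher at 0.5% (57.6%, 29.0% higher and 28.6% lower). The interaction called 3 of 5 for chondrocyte against proliferating cells (43.5%, 21.6% higher and 21.9% lower) and 4 of 5 for osteoblast against proliferating cells (54.2%, 28.9% higher and 25.3% lower). It called 4 of 4 for smooth muscle against proliferating cells (70.4%, 34.9% higher and 35.5% lower) and 3 of 5 for osteoblast against chondrocyte cultures (37.8%, 20.1% higher and 17.7% lower). Since most genes were called in many comparisons, a call alone sets none of the 5 apart. Several comparisons share the same proliferating libraries.

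Without normoxic osteoblast replicate 4, the normoxic osteoblast comparison called 4 of 5 members (82.4% of all genes), and the oxygen comparison of osteoblast cultures also called 4 of 5 (65.6% of all genes). The Sp7 interaction, not called on all libraries, then went from 3.31 (adjusted p = 0.508) to 6.83 against proliferating cells and from 2.501 (adjusted p = 0.217) to 5.999 against chondrocyte cultures. Both were called without that library, as all 5 and 4 of 5 members were, against 60.5% and 44.5% of all genes. On all libraries limma-voom called the latter at 4.58 (adjusted p = 0.00371). Scaling by library size alone changed the split of higher and lower calls in comparisons that hold chondrocyte, osteoblast or hypoxic smooth muscle libraries. Taken over the called genes only, the share that was higher went from 50.3% to 34.7% and from 50.2% to 31.8% in normoxic and hypoxic chondrocyte against proliferating cells, and from 50.8% to 38.2% in hypoxic osteoblast against proliferating cells. For low against normal oxygen it went from 46.9% to 31.8% in chondrocyte, from 49.6% to 36.9% in osteoblast and from 46.8% to 15.6% in smooth muscle cultures. It went from 48.3% to 15.0% in hypoxic smooth muscle against proliferating cells, from 52.0% to 65.7% in normoxic osteoblast against chondrocyte cultures, and from 49.6% to 16.6% in the smooth muscle interaction. The median of all genes then shifted from -0.07 to -1.35 in hypoxic smooth muscle against proliferating cells and from -0.12 to -1.49 against normoxic smooth muscle, and from -0.003 to -0.35 in normoxic chondrocyte against proliferating cells. With that scaling the chondrocyte rises over proliferating cells stayed called but were smaller. Runx1 was 0.52 higher at 21% and 0.37 at 0.5% oxygen, Runx2 0.20 and 0.50, and Cbfb 0.66 at 21%. Runx2 in normoxic osteoblast against chondrocyte cultures was then -0.30, Cbfb in normoxic smooth muscle against proliferating cells -0.14, and Runx3 in hypoxic smooth muscle -2.77 against proliferating cells and -2.13 in the interaction, all called.

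Ordered by mean level with TMM scaling, Runx1 ran 7.72-fold from normoxic smooth muscle (105.2 ± 6.48 CPM, SD, n = 4) down to hypoxic osteoblast cultures (13.6 ± 1.06, n = 3). The top 3 groups of that order, normoxic smooth muscle and both chondrocyte groups, overlapped as neighbours, as did hypoxic smooth muscle and normoxic osteoblast cultures. Runx2 spanned 3.03-fold, from hypoxic osteoblast (140.2 ± 13.6 CPM) to hypoxic proliferating cells (46.2 ± 0.495). Between those ends its groups lay close together, from both chondrocyte groups (88.6 ± 6.12 and 82.8 ± 6.80) through hypoxic and normoxic smooth muscle (72.1 ± 2.48 and 69.4 ± 4.603) to normoxic proliferating (63.9 ± 3.93) and normoxic osteoblast cultures (63.5 ± 6.04), and only the step from hypoxic chondrocyte to hypoxic smooth muscle was free of overlap. Runx3 spanned 10.7-fold, from 77.2 ± 2.38 CPM in hypoxic chondrocyte to 7.22 ± 0.648 in hypoxic smooth muscle cultures, with a clear step at hypoxic osteoblast cultures (46.9 ± 1.97), which overlapped neither neighbour. Cbfb spanned 3.40-fold, from 267 ± 20.4 CPM in normoxic chondrocyte to 78.5 ± 6.85 in hypoxic osteoblast cultures, and its lowest 3 groups, hypoxic proliferating and both osteoblast groups, overlapped as neighbours. Sp7 ranked chondrocyte cultures first (235 ± 60.5 hypoxic, 169.6 ± 44.8 normoxic), then hypoxic osteoblast cultures (96.7 ± 0.374), with no overlap at either side of the latter. The place of hypoxic smooth muscle cultures in these orders depends on the scaling. With library size alone they had the lowest mean of all groups for Runx1 (12.2 CPM), Runx2 (37.4, against 53.4 in hypoxic proliferating cells) and Cbfb (61.3, against 77.3 in hypoxic osteoblast cultures), and their Runx3 mean was 3.75 CPM, against a highest mean of 74.6 in normoxic chondrocyte cultures. The spans of these 4 genes given here therefore hold for TMM scaling.

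Compared per kilobase of annotated exon, the 3 Runx genes took different shares in each lineage. In normoxic proliferating cells Runx2 held 47.1% ± 0.702 of the summed Runx level (SD, n = 4), Runx1 28.9% ± 1.15 and Runx3 24.1% ± 1.502. Chondrocyte cultures had Runx3 first, at 46.5% ± 2.10 under 21% oxygen and 47.0% ± 1.37 under 0.5%. This order rests on the annotated exon lengths, with isoforms not resolved: as shares of counts Runx3 was last there, at 29.9% and 30.1%, against 35.8% and 37.6% for Runx1 and 34.4% and 32.2% for Runx2. Runx2 held 60.1% ± 2.18 in hypoxic osteoblast cultures, where Runx1 was down to 4.33% ± 0.630. In normoxic osteoblast cultures Runx3 ranged from 19.7% to 38.8%, the latter in replicate 4. Runx1 led in normoxic smooth muscle cultures at 46.6% ± 2.37, and Runx2 led in hypoxic ones at 70.5% ± 0.905. These shares do not depend on library scaling, as the 3 genes come from the same library. On the same scale Cbfb exceeded each Runx gene in every group, with 76.8 CPM per kilobase in normoxic chondrocyte cultures, where Runx3 had 15.4. That order also rests on the exon lengths, since in CPM Runx2 was above Cbfb in hypoxic osteoblast cultures (140.2 against 78.5).

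**Figure D4:**
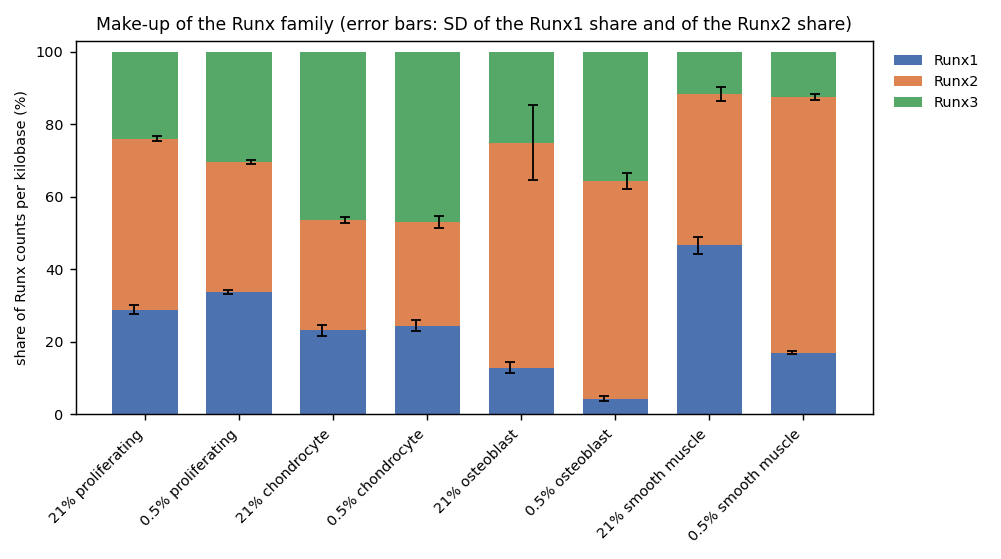
Share of each Runx gene in the summed Runx level per kilobase of exon, by group. Bars are group means (n = 4 at 21% oxygen, n = 3 at 0.5%) and error bars are SDs of the Runx1 and Runx2 shares. On this scale Runx3 takes the largest share in both chondrocyte groups and Runx1 the smallest, 4.33%, in hypoxic osteoblast cultures.

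Factors that bind, modify or oppose Runx2 and Sp7 were taken as a list of 26 genes. Of 25 tested in normoxic chondrocyte against proliferating cells, 16 rose and 5 fell, with a median of 1.18 against -0.003 over all genes, of which 37.7% rose and 37.2% fell. Dlx5, a homeobox factor that activates Runx2 and Sp7, had 0 counts in normoxic proliferating cells. At 21% oxygen the chondrocyte cultures held 44.9 CPM of it and the osteoblast cultures 8.66 CPM. Msx2, a related homeobox factor, was 28.8 CPM in hypoxic osteoblast and 8.87 CPM in normoxic osteoblast cultures. That difference did not pass the test on all libraries (1.68), and calls of the partners without normoxic replicate 4 are given below. Zbtb16, a zinc finger factor known to act before Runx2 in osteoblasts, was the partner with the largest rise in hypoxic osteoblast cultures. It stood at 291 CPM there and had 0 counts in hypoxic proliferating cells, at least 8529-fold higher when the floor of 3 counts over the group is used. In the same comparison 19 of 25 rose and 4 fell (median 1.39 against 0.001), while 36.2% of all genes rose and 35.1% fell. Twist2, which with Twist1 restrains Runx2, had the largest fall there, from 41.0 to 5.26 CPM.

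For low against normal oxygen in osteoblast cultures, 8 of the 26 partners rose and 8 fell, with a median of 0.30 against -0.03. These shares are near those of all genes, 27.0% and 27.3%. Without normoxic replicate 4 the counts were 15 and 9 of 25 with a median of 0.46, when 65.6% of all genes were called. Ets1, which binds beside Runx proteins, had the largest rise (2.32, from 16.2 to 80.9 CPM), and Msx1 the largest fall (-4.05, from 206 to 12.5 CPM). The Runx2 repressor Zfp521 fell by 1.21. Tle1, a Groucho corepressor that binds the Runx tail, fell by 1.62, and Atf4, which interacts with Runx2 at the osteocalcin gene, rose by 0.67. Twist1 rose by 0.53. Mef2c, which acts with Runx2 in hypertrophic cartilage, rose by 0.56. Sox9 was not called at 1.15, with replicate 4 of the normoxic group as given above. Dlx3 and Dlx5 were not called on all libraries, at 0.70 and 0.05. Without normoxic replicate 4 only 1 of 25 partners was not called, so most partners uncalled on all libraries were called then. In chondrocyte cultures oxygen moved fewer partners, with 3 of 26 higher and 7 lower (median -0.03 against -0.006, with 10.4% and 11.8% of all genes called), led by Dlx6 at -3.01. With TMM scaling hypoxic smooth muscle cultures had 433 CPM of Twist1 and 1276 CPM of Atf4, against 88.1 and 140.2 in normoxic ones. These were 225 and 662 CPM against 113 and 179.8 with library size alone.

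**Figure D5:**
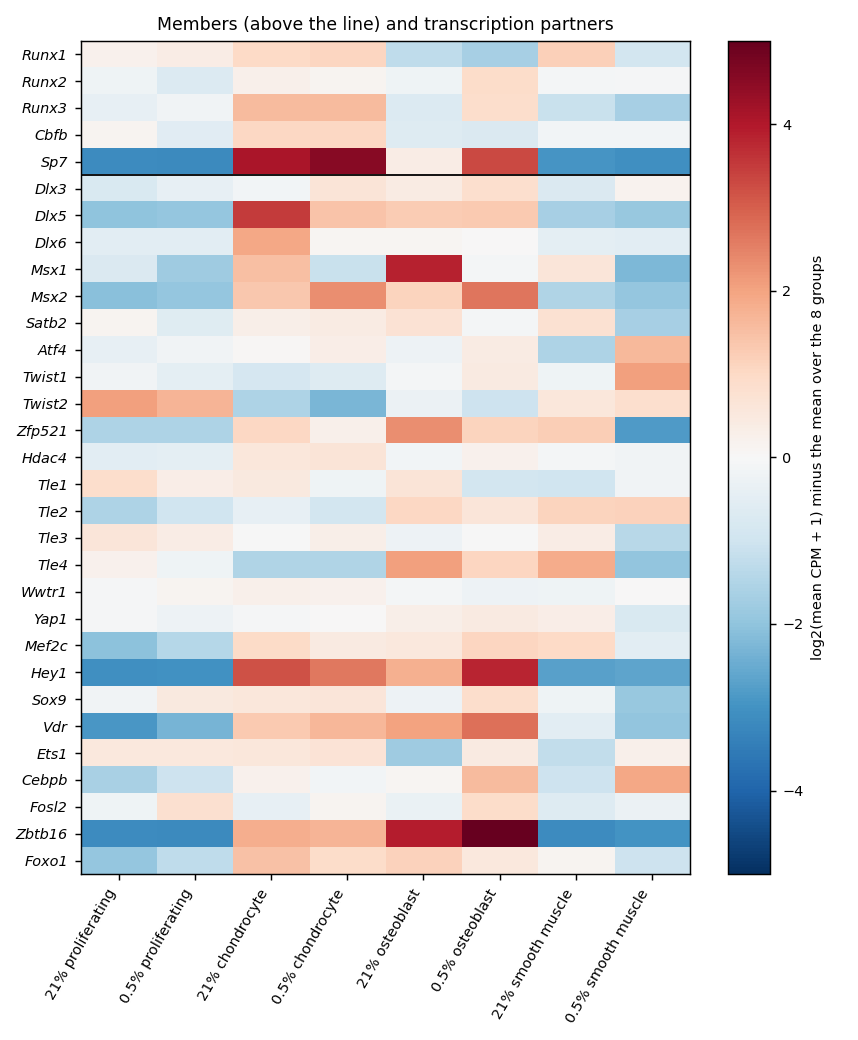
Group means of the 5 genes (above the line) and the 26 partners, as log2(mean CPM + 1) minus the mean of that gene over the 8 groups. Red is above and blue below that mean. Sp7, Hey1 and Zbtb16 are red in chondrocyte and osteoblast columns and blue in the rest, and Twist2 has the opposite colours in chondrocyte columns. The Sp7 colour of normoxic osteoblast cultures rests on replicate 4, at 45.4 CPM against 0.670 to 1.36 in the other normoxic osteoblast libraries.

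Bone genes that Runx2 and Sp7 are known to activate were taken as a list of 23. In normoxic chondrocyte against proliferating cells 16 of 19 tested rose and 2 fell (median 3.81 against -0.003, with 37.7% and 37.2% of all genes). The normoxic osteoblast comparison had 10 of 14 higher and 4 lower (median 2.66 against 0.07, with 40.9% and 37.8% of all genes). The hypoxic osteoblast comparison had 16 of 18 higher and 2 lower (median 3.81 against 0.001, with 36.2% and 35.1% of all genes). Ibsp was at 0 counts in all proliferating libraries. It reached 1173 CPM in normoxic chondrocyte, 649 in hypoxic chondrocyte, 69.6 in hypoxic osteoblast and 1.13 in normoxic osteoblast cultures, the last mostly through replicate 4. Phex, a gene of phosphate control in bone, had the largest fall in each of these comparisons. Col1a1, the main collagen of bone, rose in each, to 38652 CPM in normoxic chondrocyte and 9758 CPM in hypoxic osteoblast cultures. Bglap, the osteocalcin gene of mature osteoblasts, had a mean of at most 0.615 CPM in any group.

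Several bone genes differed between the osteoblast cultures by oxygen. In low against normal oxygen 12 of 19 rose and 3 fell, with a median of 1.58 against -0.03 over all genes, of which 27.0% rose and 27.3% fell. Without normoxic replicate 4 they were 14 and 3 of 18 with a median of 2.54, when 65.6% of all genes were called. Ibsp rose by 5.89, Mmp13 by 3.36 (9.51 to 97.7 CPM), Col10a1 by 3.18 (3.66 to 33.6 CPM), Spp1 by 2.21 (1010.5 to 4694 CPM) and Col1a1 by 0.57. Alpl was 74.6 CPM against 11.4 CPM and did not pass the test at 2.69, with the normoxic mean set mostly by replicate 4, as given above. In chondrocyte cultures the same list had 0 of 20 higher and 12 lower at low oxygen (median -1.502 against -0.006, with 10.4% and 11.8% of all genes called), with Alpl at -1.57, Col10a1 at -1.67 and Spp1 at -0.84. The oxygen interaction of osteoblast with chondrocyte cultures called 14 of 20 bone genes higher and 2 lower (median 3.55), while 20.1% and 17.7% of all genes were called in those directions. Without normoxic osteoblast replicate 4 it called 16 higher and 3 lower (median 4.10), when 44.5% of all genes were called. Normoxic smooth muscle cultures had 9 of 13 bone genes higher than proliferating cells and 3 lower (median 1.54 against 0.03, with 40.8% and 38.9% of all genes). Hypoxic smooth muscle cultures had 0 of 12 bone genes higher than proliferating cells and 9 lower, while 33.8% and 36.2% of all genes were called in those directions. Runx2 mRNA was called higher there with TMM scaling. Col10a1, a collagen of hypertrophic cartilage, stood at 227 CPM in normoxic smooth muscle cultures and had 0 counts in hypoxic ones.

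BMP signalling, which induces Runx2 and Sp7, was covered by 24 genes of ligands, receptors, Smads, targets and inhibitors. In hypoxic osteoblast against proliferating cells 16 of 22 rose and 3 fell (median 1.18 against 0.001 over all genes, of which 36.2% rose and 35.1% fell). In the normoxic comparison 14 of 21 rose and 2 fell (median 1.13 against 0.07, with 40.9% and 37.8% of all genes). Smad9, a BMP-activated Smad, had the largest rise in both osteoblast and both chondrocyte comparisons. Smad6, an inhibitory Smad and direct BMP target, went from 2.25 to 71.7 CPM in normoxic and from 3.06 to 122 CPM in hypoxic osteoblast cultures, and its oxygen difference in osteoblast cultures was not called (0.76). Id1, a target of the same Smads, rose by 0.78 at low oxygen in osteoblast cultures, from 53.6 to 92.0 CPM. Bmp2 fell by 1.24 in that comparison, from 17.4 to 7.39 CPM. Cultures labelled osteoblast and chondrocyte received BMP-2 protein, and the proliferating ones did not according to the labels.

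Among 11 relatives (other Sp factors and the ETO genes Runx1t1, Cbfa2t2 and Cbfa2t3), low oxygen in osteoblast cultures raised 5 of 8 tested and lowered 0 (median 0.47 against -0.03 over all genes, of which 27.0% rose and 27.3% fell). Sp6, a close relative of Sp7, had the largest rise there (2.49), and it also had the largest rise in chondrocyte against proliferating cells at both oxygen levels. In smooth muscle cultures the relatives had 4 of 8 lower at low oxygen and 0 higher (median -0.21 against -0.12, with 40.2% of all genes lower and 35.4% higher), and Runx1t1 fell by 3.28. Supt3, a gene that shares the Runx2 locus on the opposite strand with no exonic overlap, had 112 ± 10.4 CPM (SD, n = 3) in hypoxic smooth muscle cultures and 34.8 ± 1.64 in hypoxic proliferating cells. Runx2os1 had 12.8 ± 1.87 CPM in that hypoxic smooth muscle group and 1.90 ± 0.0725 in hypoxic proliferating cells. Both were called higher there with TMM scaling, Runx2os1 by 2.87. Their means with library size alone were 57.8 against 40.2 CPM for Supt3 and 6.62 against 2.197 CPM for Runx2os1. With TMM scaling Runx2 itself had 72.1 CPM in hypoxic smooth muscle cultures and 46.2 CPM in hypoxic proliferating cells. Against Runx2, Runx2os1 was thus larger in hypoxic smooth muscle cultures than its 3.24% of the pooled counts. Whether the counting separated Runx2os1 reads from those of Runx2 was not tested.

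Genes with the pattern most like each member were found from the 8 group means of log2(CPM + 1), as a description over 8 points among 7853 or 7854 candidate genes. Runx1 was closest to Tnfaip6 (r = 0.974), which encodes a hyaluronan-binding protein, then Tbpl1 (0.929) and Mex3b (0.915). For Runx2 they were Fnip2 (0.950), Pwwp2b (0.944) and Ccdc74a (0.930). Runx3 was closest to the proteoglycan gene Cspg4 (0.985), then Abr (0.983) and the clock gene Arntl (0.979). Cbfb was closest to the palmitoyltransferase genes Zdhhc16 (0.964) and Zdhhc18 (0.963), then the cadherin gene Cdh24 (0.961). Sp7 was closest to the Wnt inhibitor gene Wif1 (0.988), then Tmie (0.985) and Fam129a (0.982). None of the 15 is another member.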

How the data were processed

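Stranded libraries of poly(A) RNA were made, per the labels' protocols. The authors deposited 1 table of whole-number counts per gene, used here; HISAT2 2.0.5, StringTie 1.3.3b, featureCounts 1.5.0-p3 and mm10 are named in the submitters' processing notes, and the annotation used for counting is not given in the sources used here. The authors also deposited 10 tables of comparisons with log2 fold changes and p-values, from which a few values are quoted; 70 columns of per-sample normalised values were not used. Symbols came from those tables and a reference list, and 99 identifiers had no symbol. Identifiers matched GENCODE M21 for 99.79%.

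Each of 12 pairs of groups and 4 interactions was fitted separately with edgeR 4.0.16 in R 4.3.3 (filterByExpr with a minimum count of 10, TMM, robust quasi-likelihood F test, Benjamini-Hochberg adjustment over all genes tested). Standard errors and 95% intervals are Wald values under the same fit. Some of the fits were also run on simulated counts with known changes in a small set of genes. The simulation held no outlying library and no comparison in which most genes changed, so it does not test those settings. Reads were not marked by molecular identifiers, so precision from depth (19869271 to 64693346 counts per library) covers counting error only. Alternatives were RLE factors, library size alone, no filter, a filter of 10 counts in every library, DESeq2 1.42.0, limma-voom 3.58.1, a replicate block, 1 fit over all 28 libraries, and leaving out each library. Leaving out normoxic osteoblast replicate 4 for the gene lists was added after seeing the data. The members and lists were chosen with earlier results of these data known, and p-values over a list alone are not given. Named beside the members were 20 listed genes and, per list and comparison, the called gene with the largest rise and fall with a mean of at least 10 counts in a group; others named were chosen after their values were seen. Likeness used genes kept over all libraries with a SD of group means of at least 0.5.

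Replicate numbers did not pair the samples: residual correlations of same-numbered libraries ran from -0.283 to 0.111, with 0 of 12 comparisons above 0.1 in every pair. No 2 libraries of a group agreed within counting noise (chi-square per degree of freedom 2.89 to 97.1 over 36 pairs).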

Additional observations from a re-analysis of the deposited data

Results flagged for a closer look

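Chance alone sets apart about 1 in 20 independent groups of 4. The 20 groups examined here were the 5 genes in the same 4 normoxic sets of libraries, so they were not independent and cannot be counted against that rate. In 3 of them 1 library lay far from the other 3, each time normoxic osteoblast replicate 4: Runx3 at 26.8 CPM, Cbfb at 66.7 CPM and Sp7 at 45.4 CPM.

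The oxygen difference differed between lineages for 14 gene and lineage pairs, by the interaction term of edgeR's quasi-likelihood test. Against proliferating cells, chondrocyte cultures differed for Runx2 (0.32), Runx3 (-0.30) and Cbfb (0.63), and osteoblast cultures for Runx1 (-0.59), Runx2 (1.60), Runx3 (1.34) and Cbfb (0.62). Smooth muscle cultures differed from proliferating cells for Runx1 (-2.25), Runx2 (0.57), Runx3 (-0.80) and Cbfb (0.76). With library size alone in place of TMM, those of Runx2 and Cbfb turned to -0.77 and -0.57, both called, and Runx3 was -2.13. Osteoblast against chondrocyte cultures differed for Runx1 (-0.50, adjusted p = 0.0421), Runx2 (1.24) and Runx3 (1.61). The Runx3 interaction of chondrocyte cultures (adjusted p = 0.0375) was lost in 10 of 14 fits that left out 1 library, with no filter (adjusted p = 0.0574) and in 1 fit over all libraries (adjusted p = 0.522). That Runx1 interaction was lost in 9 of 14 fits that left out 1 library.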

How the results depend on the processing

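Over fits of single members, 556 values under another setting kept direction and side of the threshold, 7 gained and 12 lost the call, and 16 changed sign; leaving out 1 library gave 603, 5, 37 and 13. With library size alone in place of TMM the sign changed for Runx2 and Cbfb in hypoxic smooth muscle cultures, at -0.52 and -0.71 against hypoxic proliferating cells, -1.25 and -1.28 against normoxic smooth muscle, and -0.77 and -0.57 in the interaction. The other sign changes were between values that were not called. Runx2 in normoxic osteoblast against proliferating cells was -0.10 with library size alone and -0.01 in 1 fit over all libraries. In chondrocyte cultures Runx1 by oxygen was -0.02 with library size alone (-0.018) and with the replicate block (-0.016), and Runx3 was 0.001 with RLE factors, no filter or DESeq2 and 0.005 in 1 fit. Without a filter, Runx2 and Cbfb in smooth muscle by oxygen were -0.003 and -0.03. Members called by oxygen in proliferating cells were 2 in 1 fit over all libraries (8102 of 16540 genes called), and in smooth muscle cultures 4 with library size alone (12833 of 14914 genes) and 1 with the replicate block (10302 genes). Leaving out 1 library gave 1 to 2 there, 1 without normoxic smooth muscle replicate 4 (10661 to 11468 genes called over these fits), and genes called by oxygen in chondrocyte cultures ran from 2091 (without hypoxic chondrocyte replicate 3) to 3359, against 3157. With 1 library left out, the uncalled values that crossed 0 were those of Runx2 in normoxic osteoblast against proliferating cells (-0.017 to 0.060), of Runx1 (-0.015 to 0.090), Runx3 (-0.035 to 0.060) and Cbfb (-0.102 to 0.123) by oxygen in chondrocyte cultures, and of Cbfb by oxygen in osteoblast cultures (-0.142 to 0.013) and in the interaction of osteoblast with chondrocyte cultures (-0.182 to 0.043). With the replicate block Sp7 by oxygen in osteoblast cultures was 6.49 and called, as were its interactions of osteoblast with proliferating (4.298) and chondrocyte cultures (4.504), while Runx3 by oxygen in smooth muscle cultures (-0.42, adjusted p = 0.109) and Runx1 in the interaction of osteoblast with chondrocyte cultures (-0.48, adjusted p = 0.0751) were not; the numbers do not pair the libraries and replicate 4 exists only at 21% oxygen. Depth limits Sp7 in proliferating and smooth muscle cultures, which held 6 to 44 counts per group.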

Other observations

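Markers of fat cells, an alternative fate of cells that can form osteoblasts, were also highest where Runx2 was highest. Over 6 genes they summed to 55.7 to 60.2 CPM in hypoxic osteoblast cultures, against 9.07 to 17.0 CPM in normoxic ones and at most 18.1 CPM in any other library. Pparg, the main regulator of fat cell formation, rose by 2.74 from normoxic to hypoxic osteoblast cultures, the largest rise among these markers, while Cebpa fell by 1.79. Adipoq and Cidec had 0 counts in the hypoxic osteoblast group.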
